A study of Mus musculus with 8 samples.

Results

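Natural killer (NK) cell receptors were followed here as 10 genes chosen by name, *Klrb1c*, *Klrb1b*, *Klre1*, *Klrg1*, *Klrk1*, *Klrd1*, *Klri2*, *Ncr1*, *Itga2* and *Crtam*, among 19505 genes named on the arrays. Each gene was taken as the transcript cluster (the set of probes for 1 transcript) with the highest mean over the 8 arrays, and each of the 10 genes had 1 such cluster. In spleens with lymphoma, 4 receptor genes were lower (*Klrb1c*, *Ncr1*, *Klrd1* and *Klri2*), 4 were higher (*Klrb1b*, *Klrg1*, *Klrk1* and *Crtam*) and 2 did not pass the test (*Klre1* and *Itga2*). The values are of bulk spleen samples. In them, fewer NK cells, a smaller share of NK cells among all cells and less receptor RNA per NK cell cannot be told apart. A change was called at a Benjamini-Hochberg adjusted p of at most 0.05 in limma over all 22206 clusters. Of all clusters, 35.4% were called, 18.2% as higher and 17.2% as lower, so a call in a single gene is common in this comparison. The median log2 fold change of the 10 genes was −0.23, beside −0.06 for all clusters.

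NK cells are lymphocytes that kill cells without a rearranged antigen receptor. They read the balance between activating receptors, which signal through short adaptor proteins such as DAP12 and the Fc receptor gamma chain, and inhibitory receptors, many of which bind major histocompatibility complex class I proteins. Most of the mouse receptors are lectin-like proteins encoded side by side in the NK gene complex on chromosome 6. Several are not restricted to NK cells: NKG2D, KLRG1 and CRTAM are also found on activated T cells, and CD49b, the product of *Itga2*, on platelets and basophils.

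The arrays (Affymetrix Clariom S) measured spleen RNA of C57BL/6 mice, 1 array per sample, with 4 samples a group. Both groups were homozygous for the same knock-in allele, so that the controls carried it too. The lymphoma group was also homozygous for Vav1DC/DC, a *Vav1* allele made by genome editing in zygotes that came from 1 founder mouse and truncates the signalling protein VAV1 in every cell type, and its spleens held tumors. The labels give neither age nor sex, and the methods state that females were used for in vivo work. The study also describes cohorts of male and female mice with the *Vav1* mutation alone, which are neither group here. The labels and methods speak of spleen RNA, while a figure legend of the study speaks of cells obtained from the spleen. The same legend mentions triplicates, beside the 4 samples a group here. The sources used here do not say that each sample was a separate mouse, and the spread that enters each p-value may be partly technical.

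The array medians lay between 7.19 and 7.24 on the log2 scale, and the medians of the background probe sets between 4.76 and 4.94. Arrays of 1 group correlated at 0.992 to 0.995 over all clusters and arrays of different groups at 0.967 to 0.979. B cell genes, abundant in spleen, had list means of 11.48 to 11.54 in the controls and 10.17 to 10.46 with lymphoma, and 7 of 7 measured were lower. Y-chromosome genes were lower with lymphoma without overlap between the groups, *Kdm5d* by 2.60-fold, *Uty* by 2.38-fold and *Eif2s3y* by 2.43-fold. They read between 7.17 and 10.85 on all 8 arrays, above the background medians. These values stand at odds with the statement that females were used. Whether the groups differed in sex was not tested, and such a difference cannot be told apart from lymphoma here. *Vav1* transcripts were slightly higher with lymphoma (log2 fold change 0.31, adjusted p = 0.0149), which does not test the truncation.

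Promoters of the genes are shown because 2 pairs of close neighbours on chromosome 6 moved in opposite directions, and because RUNX, T-box and ETS factors act in NK cells. The RefSeq table used (GRCm38.p6) held promoters for 6 of the 10 genes. *Klrd1* was not among them, so of the 2 pairs only *Klrb1c* and *Klrb1b* can be compared. The 250 bases before the first listed start were searched on both strands for TGTGGT (RUNX), GGTGTG (T-box) and GGAAGT (ETS). The motifs were chosen after the values were seen. Capitals in the 4 sequences mark these letters or their reverse complement. They belong to *Klrb1c* (chr6:128788642-128788891, minus strand), *Klrb1b* (chr6:128826316-128826565, minus strand), *Ncr1* (chr7:4337465-4337714, plus strand) and *Klrk1* (chr6:129623865-129624114, minus strand), each written 5′ to 3′ along its gene.
Klrb1c: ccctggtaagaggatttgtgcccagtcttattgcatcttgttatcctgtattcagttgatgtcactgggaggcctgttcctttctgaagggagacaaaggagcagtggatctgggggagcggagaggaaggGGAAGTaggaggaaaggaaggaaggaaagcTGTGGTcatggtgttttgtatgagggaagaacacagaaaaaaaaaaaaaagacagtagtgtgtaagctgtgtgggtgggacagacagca
Klrb1b: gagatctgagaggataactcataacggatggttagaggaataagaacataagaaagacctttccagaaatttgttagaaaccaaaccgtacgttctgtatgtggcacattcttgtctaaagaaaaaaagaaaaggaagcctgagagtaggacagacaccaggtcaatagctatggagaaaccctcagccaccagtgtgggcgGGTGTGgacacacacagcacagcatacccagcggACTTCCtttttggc
Ncr1: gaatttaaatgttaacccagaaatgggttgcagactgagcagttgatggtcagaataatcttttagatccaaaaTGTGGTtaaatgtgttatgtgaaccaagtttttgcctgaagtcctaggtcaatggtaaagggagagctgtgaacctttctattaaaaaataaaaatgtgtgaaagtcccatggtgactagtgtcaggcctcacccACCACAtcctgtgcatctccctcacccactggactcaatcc
Klrk1: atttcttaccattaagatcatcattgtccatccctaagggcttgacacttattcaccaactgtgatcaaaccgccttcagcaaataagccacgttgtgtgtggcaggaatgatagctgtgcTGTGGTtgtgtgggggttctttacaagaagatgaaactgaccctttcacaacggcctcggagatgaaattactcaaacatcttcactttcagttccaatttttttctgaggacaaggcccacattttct

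The RUNX letters stood in 4 of the 6 promoters, in *Klrb1c* 89 bases before the start, in *Klrk1* 129 bases before it, in *Ncr1* at 176 and 41 bases, and in *Klre1* at 229 bases. They occur in 14.05% of the 32851 RefSeq promoters of this length. The T-box letters were found in *Klrb1b* alone among the 6 (16.3% of all promoters) and the ETS letters in *Klrb1c* and *Klrb1b* (19.7%). Genes with RUNX letters included 2 that fell, 1 that rose and 1 that did not pass the test. The windows of *Klrb1c* and *Klrb1b* are not aligned with each other, since their longest shared run, 16 bases, begins 17 bases after the *Klrb1c* start and 79 bases before that of *Klrb1b*. A match describes letters only, and binding was not measured.

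*Klrb1c* encodes NKR-P1C, the activating receptor seen by the NK1.1 antibody. Its log2 values were 7.11, 7.25, 6.75 and 6.80 in control replicates 1 to 4, and 5.94, 5.51, 5.73 and 5.30 in lymphoma replicates 1 to 4. The groups did not overlap, and the highest lymphoma array lay below the lowest control array. The mean went from 6.98 ± 0.24 to 5.62 ± 0.28 (SD, n = 4 each), a log2 fold change of −1.36 (SE 0.14) or 2.57-fold lower (adjusted p = 7.58e-06). All 10 genes, *Klrb1c* included, read above the background median on every array.

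*Ncr1* encodes NKp46, an activating immunoglobulin-like receptor used to mark NK cells and some innate lymphoid cells. Its log2 values were 7.50, 7.34, 7.27 and 7.05 in the controls and 6.40, 5.71, 6.36 and 5.56 with lymphoma. All 4 lymphoma arrays were below all 4 controls, with replicates 2 and 4 lowest. The mean went from 7.29 ± 0.19 to 6.01 ± 0.43 (SD, n = 4 each), 2.43-fold lower (log2 fold change −1.28, SE 0.18, adjusted p = 7.59e-05).

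*Klrd1* encodes CD94, the shared chain of the CD94/NKG2 receptors for the class I protein Qa-1. It read 8.19, 8.26, 8.24 and 8.01 in the controls and 7.04, 7.07, 7.56 and 6.50 with lymphoma on the log2 scale. The groups did not overlap, and the lymphoma arrays spread more widely (8.18 ± 0.11 against 7.04 ± 0.43, SD, n = 4 each). The difference was 2.20-fold (log2 fold change −1.13, SE 0.17, adjusted p = 0.000142). *Klri2* encodes an activating lectin-like chain that pairs with KLRE1. It read 7.04, 7.26, 7.25 and 6.94 in the controls and 6.80, 6.08, 6.86 and 6.22 with lymphoma. These groups came within a small distance of each other without overlap, and the gene was 1.55-fold lower (log2 fold change −0.63, SE 0.16, adjusted p = 0.00831).

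**Figure D1:**
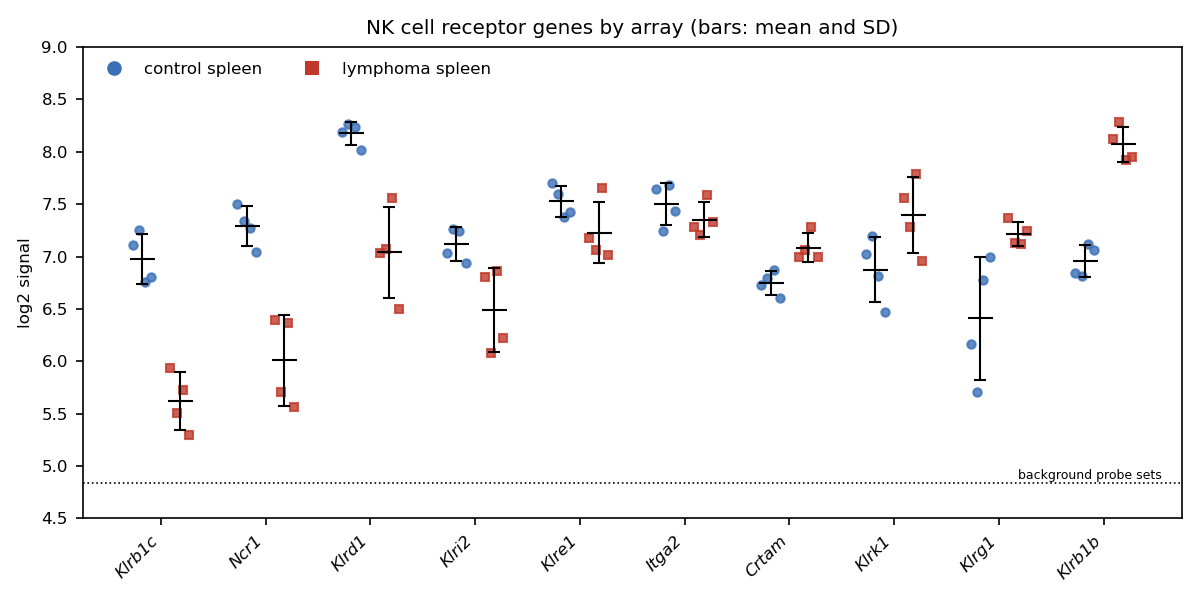
Log2 signal (y axis) of the 10 receptor genes (x axis, ordered by change) on the 4 control arrays (circles) and the 4 lymphoma arrays (squares), with bars for the mean and SD and a dotted line at the mean level of the background probe sets. The squares lie below all circles for Klrb1c, Ncr1, Klrd1 and Klri2, above all circles for Crtam, Klrg1 and Klrb1b, and overlap them for Klre1, Itga2 and Klrk1.

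The receptors that rose were led by *Klrb1b*, which encodes NKR-P1B, an inhibitory receptor for the lectin-like ligand Clr-b. Its log2 values were 6.84, 6.82, 7.12 and 7.06 in the controls and 8.12, 8.29, 7.92 and 7.95 with lymphoma. Every lymphoma array lay above every control, and the mean rose 2.16-fold, from 6.96 ± 0.15 to 8.07 ± 0.17 (SD, n = 4 each; log2 fold change 1.11, SE 0.10, adjusted p = 2.70e-06). It had the smallest adjusted p of the 10 genes.

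*Klrg1* encodes an inhibitory receptor for cadherins found on mature NK cells, effector T cells and some regulatory T cells. It read 6.16, 5.71, 6.78 and 6.99 in the controls and 7.37, 7.13, 7.12 and 7.25 with lymphoma. The spread was on the control side (6.41 ± 0.59 against 7.21 ± 0.12, SD, n = 4 each), with control replicate 2 lowest, and the groups did not overlap. The rise was 1.75-fold (log2 fold change 0.80, SE 0.21, adjusted p = 0.0104).

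*Crtam* encodes an adhesion receptor of activated NK and T cells. Its values were 6.73, 6.80, 6.88 and 6.60 in the controls and 6.99, 7.06, 7.28 and 7.00 with lymphoma, a small rise without overlap (1.26-fold, log2 fold change 0.33, SE 0.09, adjusted p = 0.0123).

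*Klrk1* encodes NKG2D, the activating receptor for stress-induced class I-like proteins. It read 7.02, 7.20, 6.81 and 6.47 in the controls and 7.56, 7.29, 7.79 and 6.96 with lymphoma. Here the groups overlapped, since lymphoma replicate 4 lay below control replicates 1 and 2. The rise of 1.44-fold (log2 fold change 0.52, SE 0.18, adjusted p = 0.0346) was the weakest call of the set. It was lost without control replicate 3 (adjusted p = 0.0725), control replicate 4 (0.106), lymphoma replicate 1 (0.0900) or lymphoma replicate 3 (0.102).

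The other two genes were not called. *Klre1* encodes a lectin-like chain whose effect depends on its partner, KLRI1 or KLRI2. Its values were 7.71, 7.59, 7.38 and 7.43 in the controls and 7.18, 7.06, 7.65 and 7.01 with lymphoma, so that lymphoma replicate 3 alone lay among the controls. The log2 fold change was −0.30 (95% confidence interval −0.58 to −0.02, adjusted p = 0.0920). Without lymphoma replicate 3 it was −0.44 and passed the test (adjusted p = 0.00458). *Itga2* encodes CD49b, the collagen-binding integrin chain seen by the DX5 antibody. It read 7.64, 7.25, 7.68 and 7.44 in the controls and 7.28, 7.20, 7.59 and 7.33 with lymphoma, and the groups overlapped (log2 fold change −0.15, 95% confidence interval −0.39 to 0.09, adjusted p = 0.326).

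Across the 10 genes, the lymphoma arrays lay wholly below the controls for 4 genes and wholly above them for 3. Over all clusters, the lymphoma arrays were all above the controls for 18.0% and all below them for 16.7%.

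Arrays of 1 group also differed among themselves in receptor levels. Lymphoma replicate 3 was the highest lymphoma array for 6 of the 10 genes, and replicate 4 was the lowest for 5 and the highest for 0. Over all clusters, replicate 3 was highest for 23.2% and replicate 4 lowest for 28.8%. Among the controls, replicate 4 was likewise lowest for 5 of the 10 genes, beside 25.8% over all clusters. The 2 arrays stood furthest apart for *Klrd1* (7.56 against 6.50), *Klrk1* (7.79 against 6.96) and *Ncr1* (6.36 against 5.56). The CD8 T cell gene *Cd8a* was in the same order, at 10.03 in replicate 3 and 9.38 in replicate 4, although it did not differ between the groups (log2 fold change 0.02, adjusted p = 0.924). Its part in the spread of the receptors was not tested. *Klrb1b* and *Klrg1* did not follow this order.

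**Figure D2:**
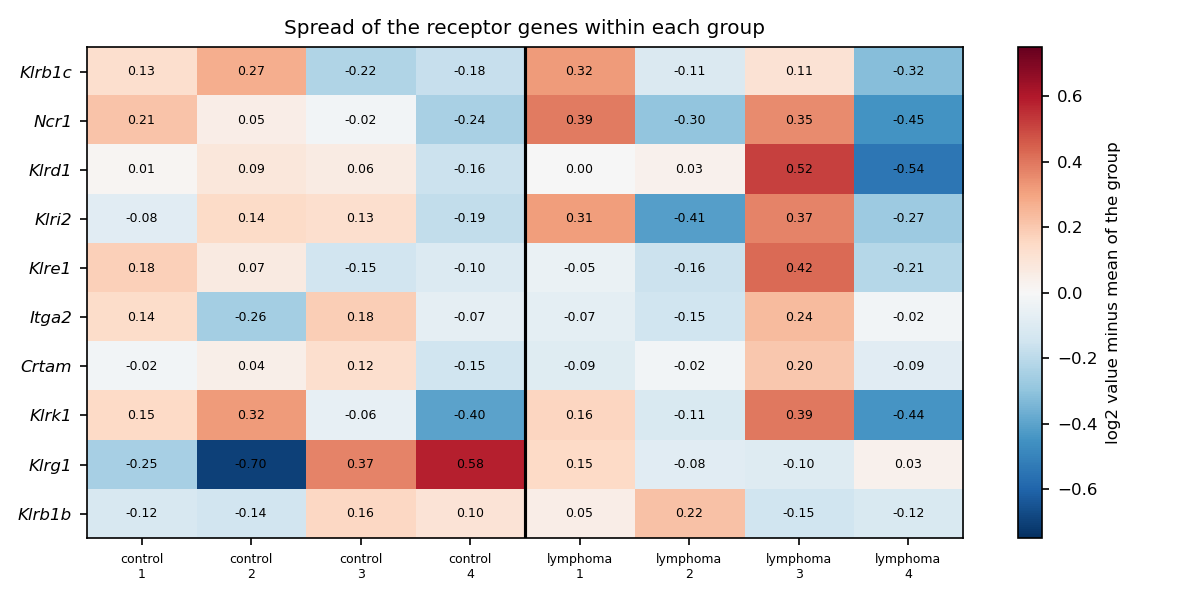
Deviation of each log2 value from the mean of its group, for the 10 receptor genes (rows) on the 4 control and 4 lymphoma arrays (columns), with a colour scale in log2 units. Lymphoma replicate 3 is above its group mean for 8 of the 10 genes, with Klrd1 at 0.52, and control replicate 2 is at −0.70 for Klrg1.

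The partner chains did not move as 1 group, with 1 higher, 1 lower and 3 not called among the 5 measured. *Klri1*, the inhibitory partner of KLRE1, read 7.86 to 8.21 in the controls and 6.96 to 7.38 with lymphoma, a fall without overlap (log2 fold change −0.85, adjusted p = 3.08e-05). *Itgb1*, the beta chain that pairs with CD49b, rose (0.38, adjusted p = 0.000943). The CD94 partners had log2 fold changes of 0.42 for *Klrc1*, the inhibitory NKG2A chain (adjusted p = 0.0993), −0.49 for *Klrc2*, the activating NKG2C chain (adjusted p = 0.0577), and −0.37 for *Klrc3*, NKG2E (adjusted p = 0.0643). None of these 3 passed the test. *Klrc1* passed it without lymphoma replicate 4 (0.56, adjusted p = 0.0367) and *Klrc2* without lymphoma replicate 3 (−0.69, adjusted p = 0.00219). *Klrc3* passed it without control replicate 4 (adjusted p = 0.0437), lymphoma replicate 1 (0.0457) or lymphoma replicate 3 (0.0141).

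Within-array differences between 2 genes of a pair were compared for 5 pairs by an exact two-sided permutation test over 70 labellings, whose smallest possible p is 0.0286. The log2 signal of *Klrb1c* minus that of *Klrb1b* went from 0.02 ± 0.39 to −2.45 ± 0.31 (SD, n = 4 each), a difference of −2.47 without overlap (exact permutation p = 0.0286, adjusted over 5 pairs 0.0714). *Klrd1* minus *Klrc1* went from 0.69 ± 0.14 to −0.86 ± 0.27, a difference of −1.56 without overlap (exact permutation p = 0.0286, adjusted 0.0714). Levels of different probes are not comparable, so only the shift within a pair can be read. The shifts of *Klre1* minus *Klri2* (0.33, exact permutation p = 0.0857, adjusted 0.107), *Klrk1* minus *Hcst* (0.49, p = 0.229, adjusted 0.229) and *Itga2* minus *Itgb1* (−0.53, p = 0.0571, adjusted 0.0952) also missed the threshold after adjustment. Without control replicate 2, where *Hcst* was low, the shift for *Klrk1* minus *Hcst* was 0.85. All pairs but *Klre1* minus *Klri2* then reached an adjusted exact permutation p of 0.0357. For *Klrb1c* minus *Klrb1b* and *Klrd1* minus *Klrc1* the p was already the smallest possible with all arrays. Their adjusted p therefore depends on how many other pairs reach it. With single arrays left out, the adjusted exact permutation p ran from 0.0357 to 0.457 for *Klrk1* minus *Hcst*. For *Itga2* minus *Itgb1* it ran from 0.0357 to 0.143.

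A list of adaptors and proximal signalling genes, which holds kinases and inhibitory phosphatases as well, had 12 higher, 4 lower and 6 not called of 22 measured (median log2 fold change 0.30). Of the 4 adaptors that carry the activating signals, 3 were higher and *Hcst* was not called. *Fcer1g*, the Fc receptor gamma chain used by NKp46 and NKR-P1C, went from 8.62 to 9.16 in the controls to 10.79 to 11.02 with lymphoma (log2 fold change 2.04, adjusted p = 2.95e-08). *Tyrobp*, DAP12, rose by 0.79 (adjusted p = 7.49e-06), and *Cd247*, the CD3 zeta chain, by 0.36 (adjusted p = 0.00479). *Fcer1g* and *Tyrobp* are also expressed by myeloid cells, and neutrophil genes were higher in the same samples for 8 of 8 measured, with list means of 6.71 to 7.11 in the controls and 9.86 to 10.16 with lymphoma. Macrophage genes were higher for 6 of 8 and lower for 1, with list means of 9.11 to 9.33 and 10.30 to 10.39. The part of these cells in the adaptor values was not tested. *Hcst*, the NKG2D adaptor DAP10, read 7.05 to 7.54 with lymphoma and 7.53, 6.48, 7.47 and 7.43 in the controls (log2 fold change 0.03, adjusted p = 0.931). In the same list *Sh2d1a*, the adaptor SAP, rose by 1.28 and *Lcp2*, SLP-76, by 0.94.

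Among 17 measured ligands of these receptors, of 24 listed, 5 were higher, 3 lower and 9 not called, with a median log2 fold change of −0.03. The listed *Raet1a* to *Raet1e*, *H60a* and *H60b* were not measured, so of the NKG2D ligands only *Ulbp1* and *H60c* were read. *H2-T23*, the heavy chain of Qa-1 bound by CD94/NKG2A, rose from 9.93 to 10.15 in the controls to 11.38 to 11.72 with lymphoma (log2 fold change 1.42, adjusted p = 1.63e-07). It moved in the opposite direction to *Klrd1*. *Cadm1*, the ligand of CRTAM, rose with its receptor (1.37, adjusted p = 1.80e-06), and *Ulbp1*, the NKG2D ligand MULT1, rose with *Klrk1* (0.80, adjusted p = 3.38e-05). *Cfp*, properdin, a plasma protein that binds NKp46, rose by 1.09 (adjusted p = 3.37e-07) while *Ncr1* fell. Of the collagens bound by CD49b, *Col1a2* rose by 0.49 (adjusted p = 0.00152), while *Col1a1* (0.01) and *Col4a1* (0.08) were not called.

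The Clr ligands of the NKR-P1 receptors lie in the same gene complex. *Clec2i*, Clr-g, a ligand of NKR-P1F, fell from 10.30 to 10.39 in the controls to 9.26 to 9.53 with lymphoma (log2 fold change −0.93, adjusted p = 1.59e-06), while its receptor gene *Klrb1f* rose (0.61, adjusted p = 0.00051). *Clec2d*, Clr-b, the ligand of NKR-P1B, was lower by a small amount (−0.23, adjusted p = 0.0438), opposite to *Klrb1b*. That call was lost without control replicate 1 (adjusted p = 0.0740), control replicate 2 (0.119), control replicate 3 (0.0702), lymphoma replicate 2 (0.105), lymphoma replicate 3 (0.0800) or lymphoma replicate 4 (0.0827). The cadherin genes for KLRG1, *Cdh1* (−0.03), *Cdh2* (−0.07) and *Cdh4* (−0.08), did not pass the test, nor did the NKG2D ligand *H60c* (−0.21).

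**Figure D3:**
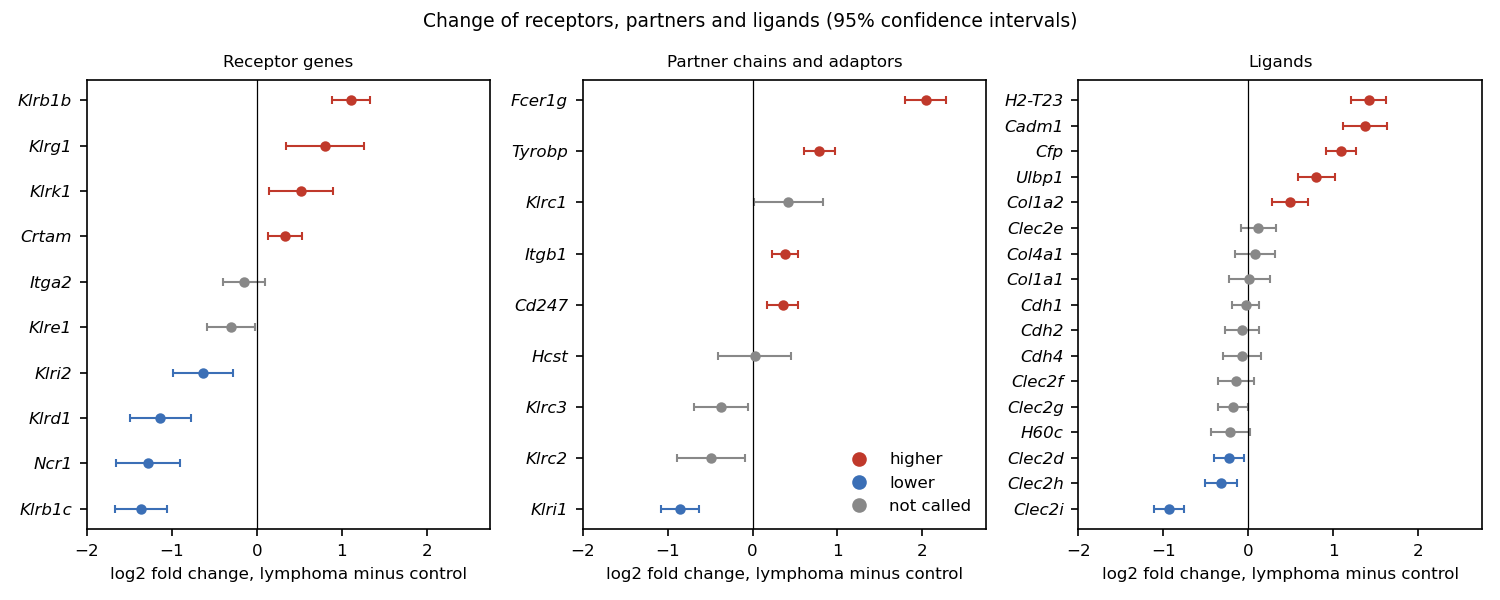
Log2 fold change, lymphoma minus control (x axis), with 95% confidence intervals from limma for the 10 receptor genes, their partner chains and 4 adaptors, and 17 ligands (y axis, one gene per line), coloured by call. Klrb1c is lowest among the receptors at −1.36 and Klrb1b highest at 1.11, Fcer1g lies at 2.04, and H2-T23 is the highest ligand at 1.42.

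Along chromosome 6, the lectin-like genes from *Klrb1a* to *Klra2* in the RefSeq order held 30 measured genes, of which 5 were higher, 14 lower and 11 not called (median log2 fold change −0.27). For 7 of the 30 the mean over the arrays was at or below background. *Klrb1c* and *Klrb1b*, which had no other protein-coding gene between them, moved in opposite directions, as did the neighbours *Klrd1* and *Klrk1*. *Klre1* and *Klrd1*, also neighbours, were both below 0, but *Klre1* did not pass the test. Ly49 and related genes other than the 10 genes were counted on a list of 28. Of the 28, 18 were measured, with 3 higher, 8 lower and 7 not called (median −0.36). The 8 lower include *Klra16*, which was not placed within the complex, and the pseudogene *Klra13-ps*. *Klra4* and *Klra8* were among those not measured. The 3 called higher were *Klra2*, *Klrb1f* and *Klrh1*, but none of the 8 arrays read *Klrh1* above its background median, so that its difference is not a measured rise.

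*Klra2* encodes Ly49B, an inhibitory receptor found on myeloid cells rather than NK cells. It read 6.73, 6.75, 7.04 and 6.49 in the controls and 8.80, 9.02, 8.63 and 8.59 with lymphoma, the largest change on the list (log2 fold change 2.01, adjusted p = 7.38e-08). Of the Ly49 genes of NK cells, *Klra7* (−0.56) and *Klra9* (−0.61) were called lower, although the groups overlapped for both. Of the other *Klra* genes, *Klra17* (0.31) and *Klra3* (0.02) were not called. *Klra3* was at or below background on 4 control and 3 lymphoma arrays. *Klra9* was at or below the background median on 2 lymphoma arrays. *Klra5* and *Klra10*, also called lower, were not above it on any lymphoma array, nor *Klra10* on 2 control arrays, and no size is given for them. These genes are near-identical copies in part, as are the *Klrc* and *Klrb1* genes. Probe sequences were not used here, so signal shared between copies was not tested.

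**Figure D4:**
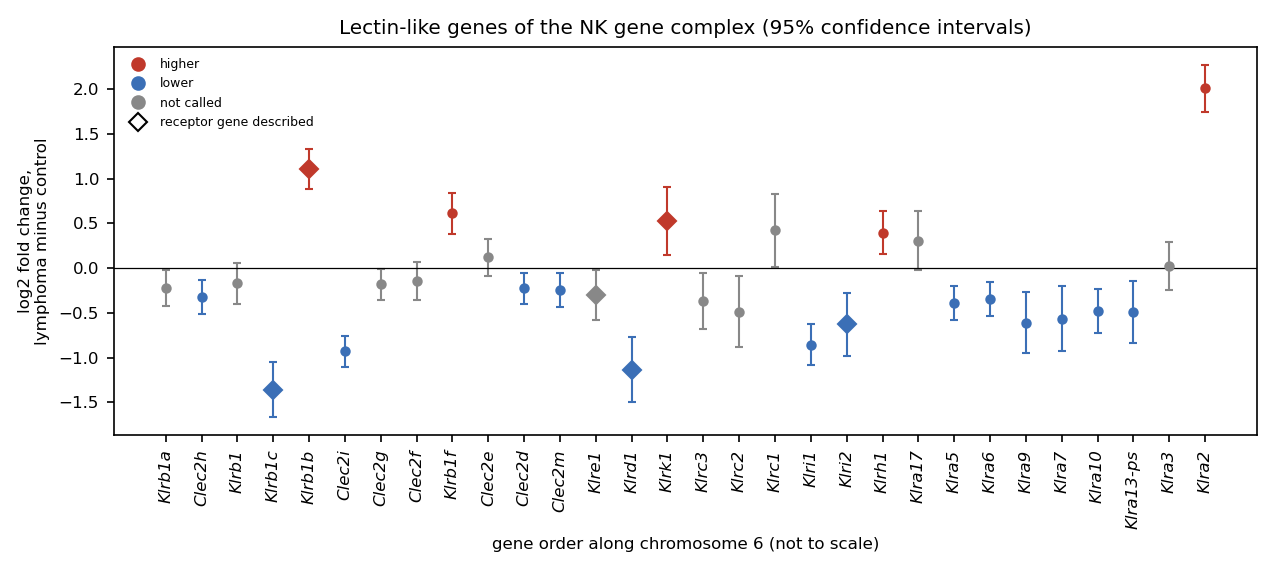
Log2 fold change, lymphoma minus control (y axis), with 95% confidence intervals for the 30 measured lectin-like genes of the NK gene complex in their order on chromosome 6 (x axis, not to scale), coloured by call, with diamonds for the receptor genes described. Klrb1c (−1.36) and Klrb1b (1.11) stand side by side on opposite sides of 0, most Klra genes lie below it, and Klra2 stands at 2.01. The mean of 7 of the 30 genes, Klrh1 and Klra10 among them, is at or below background.

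Other genes of NK cells moved in both directions. Of 10 measured NK cell genes outside the 10 receptors, 4 were lower, 0 higher and 6 not called (median −0.31), beside 17.2% lower over all clusters. List means were 7.03 to 7.17 in the controls and 6.70 to 7.03 with lymphoma. *Klra7*, *Klra9*, *Klrc1* and *Klrc2* on this list were also counted on the Ly49 list. The 4 called lower were *Txk* (−0.75), *Klra9*, *Klra7* and *Gzma*, granzyme A (−0.43). By contrast, 14 of 19 cytotoxic effector genes were higher and 1, *Gzma*, lower (median 0.92), led by *Gzmk* (5.57), *Ccl3* (4.59) and *Ifng* (3.50). NK cell transcription factors were higher for 10 of 15 and lower for 5 (median 0.74), with *Eomes* at 2.54, *Prdm1* at 1.59 and *Tbx21*, T-bet, at 1.26. Genes of maturation, homing and cytokine response were higher for 12 of 17 and lower for 2 (median 0.64), with *Il2rb* at 1.38, *Itgam* at 1.32 and *Ly6c2* at 1.19.

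Many of these genes are also used by T cells, and some, such as *Itgam*, by myeloid cells. Neutrophil genes were higher for 8 of 8 measured, and macrophage genes for 6 of 8 with 1 lower. The part of myeloid cells in these values was not tested. The study describes an angioimmunoblastic-like lymphoma of CD4 T cells with follicular helper T cell markers in these mice. It names *Eomes* and *Tbx21* among the genes raised in the lymphoma samples. T cell genes were higher for 6 of 8 measured and lower for 0. Their list means were 9.06 to 9.19 in the controls and 9.66 to 9.83 with lymphoma. Regulatory T cell genes were higher for 6 of 7 measured, with *Ctla4* at 1.89. The 1 not called was *Il2ra* (log2 fold change −0.02, adjusted p = 0.933), and *Foxp3* was on that list but not measured. The CD8 genes were not called, with list means of 9.69 to 9.77 and 9.36 to 9.996. The part of T cells in the rise of *Klrg1*, *Klrk1* and *Crtam* was not tested. NK cell receptors of other families were higher for 7 and lower for 2 of 13 measured (median 0.35), with *Fcgr4*, an Fc receptor of myeloid cells, at 3.49 and *Tigit*, an inhibitory receptor of NK and T cells, at 2.14. *Cd226*, the activating receptor that shares ligands with TIGIT, fell from 9.07 to 9.29 in the controls to 7.19 to 8.02 with lymphoma (log2 fold change −1.56, adjusted p = 3.42e-06).

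For *Itga2*, the genes of other cells that carry CD49b were read beside it. Platelet genes were higher for 1 of 8 measured and not called for 7 (median 0.04, list means 8.22 to 8.46 in the controls and 8.30 to 8.58 with lymphoma). The 1 was *Pf4* (0.34, adjusted p = 0.0312), whose call was lost without control replicate 2 (0.0828), lymphoma replicate 1 (0.0738) or lymphoma replicate 3 (0.0887). Basophil and mast cell genes were higher for 4 of 8, with *Cpa3* at 0.87 and *Mcpt8* at 0.85 (median 0.34, list means 5.69 to 5.82 and 6.10 to 6.16). Their part in the value of *Itga2* was not tested. Genes of innate lymphoid cells, which can also carry NKp46 or KLRG1, were higher for 1 and lower for 1 of 4 measured, with *Rora* at 1.37 and *Il17rb* at −0.70.

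The genes whose pattern over the 8 arrays was most like that of *Ncr1* were *Ubr2* (Pearson r = 0.993), *Bcl2* (0.993), *Cd46* (0.992), *Thada* (0.991) and *Kidins220* (0.991). For *Klrb1c* they were *Vezf1* (0.995), *Snapc3* (0.995), *Zfp82* (0.993), *Cklf* (0.993) and *Kcnq1ot1* (0.992). The arrays fall into 2 groups, and 1195 named clusters for *Ncr1* and 1312 for *Klrb1c* had an r above 0.9, so that many genes were nearly as alike.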

How the data were processed

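Spleen RNA of 4 control and 4 lymphoma samples was measured on 8 one-colour arrays. The deposited values are log2 signals that the authors obtained by robust multi-array average (RMA) in R 3.6.3, per the submitters' processing notes. They include background correction, quantile normalization and probe summary, so only relative signal within a probe set is comparable. The labels name Trizol and the methods a column kit for RNA extraction.

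The table of 29129 probe sets was reduced to 22206 transcript clusters by leaving out 6923 control sets. The platform annotation names 19572 of them. Values were used as deposited, with no filter on dim clusters, and groups were compared in limma 3.58.1 (R 4.3.3, lmFit and eBayes), with Benjamini-Hochberg adjustment over all clusters and a threshold of 0.05. The number of arrays limits the precision. The code was tested on simulated data. Beside the 10 genes, the rule named the measured ligands and partner chains, 4 adaptors, the 3 called genes with the largest change of each other list (2 of a marker list) and the 5 genes most like *Ncr1* or *Klrb1c*. *Cd8a*, *Il2ra*, *Klra3*, *Klra5*, *Klra7*, *Klra10*, *Klra13-ps*, *Klra16*, *Klra17*, *Klrh1*, *Gzma* and the genes of the sample checks were named after their values were seen. The 10 genes and the gene lists were chosen with earlier results of these data known. Alternatives covered scaling, moderation, array weights, dim clusters, the threshold, a replicate block and leaving out each array. The knock-in allele shared by both groups is not reported here.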

Additional observations from a re-analysis of the deposited data

Results flagged for a closer look

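Of 156 groups of 4 arrays checked, 8 held 1 array set far apart from the other 3, and chance alone gives about 1 in 20. *Hcst* was low in control replicate 2, at 6.48 against 7.43 to 7.53. *H2-T23* was low in control replicate 2 at 9.93, with the other controls at 10.13 to 10.15. *Klrc3* was low in control replicate 4 at 5.77. In lymphoma replicate 4, *Cdh2* (6.31), *Col1a1* (8.80) and *Col4a1* (8.70) were high and *Lcp2* (9.69) was low. *Rora* was high in lymphoma replicate 1 at 8.45.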

How the results depend on the processing

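All 10 receptor genes kept the direction of their log2 fold change under the alternatives run, and 8 of 174 alternative values moved across the threshold, 7 of them losing a call and 1 (*Klre1*) gaining one. Without the dimmest 50% of clusters, 6 of the 10 genes were not tested, which left 1 higher and 1 lower. At an adjusted p of at most 0.01, 1 receptor gene was higher, 4 were lower, and of all clusters 3100 were higher against 4039 and 2166 lower against 3825. Leaving out 1 array at a time gave 3 to 4 receptor genes higher and 4 to 5 lower. Over all 22206 clusters it gave 3565 to 3910 higher and 3062 to 3670 lower. The shifts of pairs ranged from −2.60 to −2.33 for *Klrb1c* minus *Klrb1b*, from −1.68 to −1.47 for *Klrd1* minus *Klrc1*, from 0.24 to 0.45 for *Klre1* minus *Klri2*, from 0.29 to 0.85 for *Klrk1* minus *Hcst* and from −0.64 to −0.47 for *Itga2* minus *Itgb1*. The replicate numbers shared by the groups are not stated to pair samples. Same-numbered arrays deviated together at correlations of 0.12, 0.04, 0.04 and 0.17, and 3 of 4 control arrays correlated best with their own number. The main fit did not take the numbers as pairs, and whether same-numbered arrays shared a batch was not tested. With the replicate block, 4 receptor genes were higher and 4 lower, and over all clusters 4039 were higher and 3983 lower. With it *Klrc1* (adjusted p = 0.0461), *Klrc2* (0.0278) and *Klrc3* (0.0302) were called and *Clec2d* (0.0557) was not. The median log2 fold change of all clusters was −0.06 as deposited, −0.08 with equal array medians and −0.01 after cyclic loess, and 51.4%, 44.8% and 55.2% of called clusters were higher. *Clec2h* (−0.32, adjusted p = 0.0127) lost its call after cyclic loess (0.0628). *Klrc2* and *Klrc3* were also called with equal array medians (0.0412 and 0.0460) and with robust moderation (0.0467 and 0.0498). The causes of these changes were not tested. Signals near background, such as that of *Klra9*, can understate differences, and *Klrh1* and *Klra10* were mostly not above it.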
